A study of Mus musculus with 6 samples.

Results

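The B lineage marker genes Cd79a, Cd79b, Ms4a1, Pax5, Cd22, Cr2, Fcrla, Cxcr5 and Cd37 were followed in gonadal white adipose tissue (GWAT), the fat pad around the gonads, on 6 microarrays. These 9 genes were listed by name, out of 19937 genes that the array reads with a probeset (a set of probes summarised as 1 value) carrying a single gene symbol. They were listed with earlier results of these data known, their variation between arrays of 1 genotype among them. Where a gene has several such probesets, the one with the highest mean stands for it, and each of the 9 genes had 1. The tissue came from chow-fed male mice aged 4 months on a C57BL/6J background, and 2 genotypes were compared. The ob/ob mice lack leptin, the appetite-restraining hormone of fat cells, and were measured on 3 arrays. The ob/ob/Fsp27-/- mice lack leptin as well as Fsp27, a lipid droplet protein of adipocytes encoded by Cidec, and were also measured on 3 arrays. Both groups are thus leptin-deficient, and the design holds no lean mice and no mice that lack Fsp27 alone. The study's methods state that the RNA of 3 mice was pooled for each array, which the labels do not mention, so the spread between arrays is one between pools, and how single mice differed cannot be read from it.

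B cells are lymphocytes that recognise antigen through a surface antibody, the B-cell receptor, and can turn into antibody-secreting plasma cells. The receptor signals through the paired chains encoded by Cd79a and Cd79b, its response is raised by the complement receptor Cr2 and restrained by Cd22, and Pax5 is the transcription factor that holds a cell in the B lineage. In fat, B cells are known from the tissue itself, from small lymphoid clusters and from lymph nodes lying in some depots, and they have been studied as a part of the inflammation of obese fat beside the far more numerous macrophages. In RNA from whole tissue, fewer cells of a type and less RNA per cell cannot be told apart.

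Values are on the log2 scale, so that a difference of 1 is a doubling, and levels of different genes cannot be set against each other because each probeset responds to its own degree. A gene was called higher or lower at an adjusted p under 0.05 together with a log2 fold change of 0.5 or more in either direction, in a limma fit of all 6 arrays and 22961 probesets. The p-values measure the spread between these arrays. All arrays had a similar median (6.02 to 6.10). Cidec read 11.49, 11.78 and 11.98 in ob/ob arrays and 11.34, 11.51 and 11.53 in ob/ob/Fsp27-/- arrays (log2 fold change −0.29, adjusted p = 0.157, limma). The place of its probes relative to the deleted part is not given in the sources used here, so that Cidec gave no check of the genotype labels, and every direction below rests on the labels.

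Array 1 of the ob/ob/Fsp27-/- mice stood apart from the other two of its genotype. It lay apart from them on the second principal component, which took up 8.92% of the variance. Of 14 measured epithelial genes, 13 were highest of all 6 arrays in it, and Epcam, an adhesion protein of epithelial cells, read 7.89 there against 4.54 to 5.87 on the other 5 arrays. The mean level of the 14 genes was 6.73 on that array and 5.43 to 5.86 elsewhere, and none of them was called between the genotypes (1 at an unadjusted p under 0.05, limma). The epithelial genes were listed after the values had been seen, and their part in the results below was not tested. Results are therefore given with all arrays and without this array. It was also the lowest of its genotype for all 9 B lineage genes. Leaving it out thus raised each of their log2 fold changes by the choice of array, and calls gained in this way are no separate evidence.

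With all 6 arrays, none of the 9 B lineage genes was called higher and 2 were called lower, Cd37 and Cd22, while 9.58% of all genes were called higher and 10.8% lower. The other 7 genes all had a positive fold change, from 0.36 (Fcrla) to 1.29 (Cd79a), and those with the largest fold changes also spread most between the ob/ob/Fsp27-/- arrays. Of these 7, Pax5 passed the adjusted p (0.0214, limma) with too small a fold change. In that direction 14.7% of all genes passed the adjusted p at any size of change, the 9.58% called higher among them. A further 5 of the 7 had adjusted p values between 0.05 and 0.1, and 6 of the 7 had an unadjusted p under 0.05 (limma). The shares of all genes in these 2 ranges were not counted, so neither number can be set against the rest of the array. Over the 9 genes the log2 fold change had a median of 0.44, against 0.058 over all genes.

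**Figure D1:**
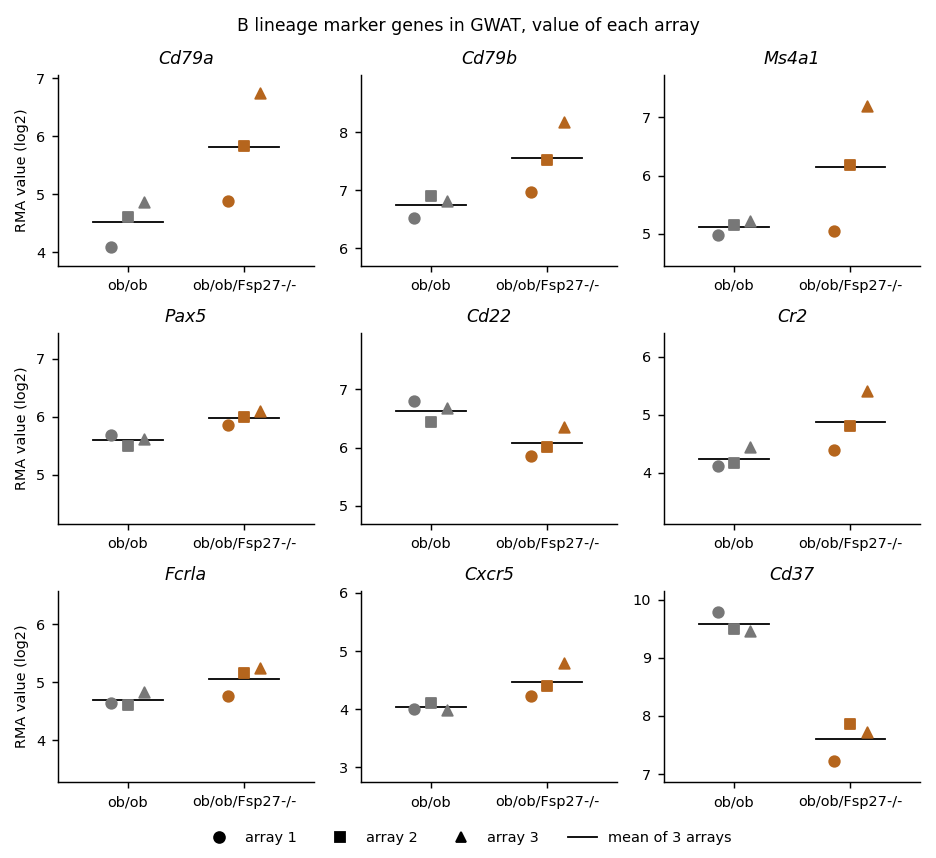
Level of each of the 9 B lineage genes (RMA value, log2 scale, each panel spanning the same number of log2 units) on the 3 ob/ob arrays (grey) and the 3 ob/ob/Fsp27-/- arrays (brown), with the mean of each genotype as a line. Array 1 (circle) is the lowest ob/ob/Fsp27-/- array in all 9 panels and array 3 (triangle) the highest in 8, and Cd37 and Cd22 lie lower in ob/ob/Fsp27-/- arrays.

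Cd79a encodes the Ig-alpha chain, which passes the signal of the B-cell receptor into the cell. It read 4.09, 4.61 and 4.87 on ob/ob arrays 1, 2 and 3, against 4.89, 5.83 and 6.73 on ob/ob/Fsp27-/- arrays 1, 2 and 3. The genotypes did not overlap, but array 1 of the ob/ob/Fsp27-/- mice lay only 0.016 above the highest ob/ob array while array 3 lay far above. The mean was 4.52 ± 0.40 (SD, n = 3) in ob/ob mice against 5.82 ± 0.92 (SD, n = 3), and the difference of 1.29 (standard error 0.44, 95% interval 0.25 to 2.33) did not pass the test (adjusted p = 0.0671, limma). Without ob/ob/Fsp27-/- array 1 the difference was 1.76 and Cd79a was called higher (adjusted p = 0.0100, limma). Leaving out array 3 instead brought it down to 0.84 (adjusted p = 0.127, limma).

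The promoter of Cd79a is shown because this gene had the largest positive fold change of the 9. It was taken from RefSeq on build GRCm38.p6 as the 250 bases before the annotated start, chr7:24897247-24897496 on the plus strand, with an E box (CAGGTG, the motif of E proteins such as that encoded by Tcf3) in capitals, 154 to 149 bases before the start.
Cd79a promoter: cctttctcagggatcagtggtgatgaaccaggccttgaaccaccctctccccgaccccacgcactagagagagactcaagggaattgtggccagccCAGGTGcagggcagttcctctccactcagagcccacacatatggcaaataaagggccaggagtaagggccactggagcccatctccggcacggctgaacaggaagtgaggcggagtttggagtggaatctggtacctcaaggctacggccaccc
The table of promoters held 6 of the 9 genes, all but Cd79b, Ms4a1 and Cxcr5. Among these 6, the E box was present on either strand in 5 (Cd79a, Cr2, Fcrla, Cd22 and Cd37, not Pax5), and in 17.2% of all 32851 promoters of the same length. The octamer ATGCAAAT and the ETS-IRF composite motif (GGAA and GAAA with 2 bases of any kind between them), both searched on both strands, were in none of the 6 and in 1.6% and 2.3% of all promoters. No match overlapped that of another motif, and the matches describe the letters of the window and not binding of a factor.

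Cd79b encodes the partner chain, Ig-beta. Its values were 6.52, 6.90 and 6.82 on the ob/ob arrays, against 6.97, 7.52 and 8.17 on the ob/ob/Fsp27-/- arrays. As for Cd79a, array 1 of the ob/ob/Fsp27-/- mice lay just above the ob/ob arrays, by 0.064, and array 3 was the highest. The mean of 6.75 ± 0.20 (SD, n = 3) in ob/ob mice stood against 7.55 ± 0.60 (SD, n = 3), which differ by 0.81 (standard error 0.28, 95% interval 0.14 to 1.47, adjusted p = 0.0738, limma). It was called higher without ob/ob/Fsp27-/- array 1 (1.10, adjusted p = 0.0128, limma) and had a log2 fold change of 0.50 without array 3 (adjusted p = 0.121, limma).

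Cr2, which binds complement fragments on antigen and lowers the threshold of the receptor, is also made by follicular dendritic cells of lymphoid tissue. Its levels were 4.11, 4.18 and 4.44 in ob/ob mice, against 4.40, 4.81 and 5.41 in ob/ob/Fsp27-/- mice. Array 1 of the ob/ob/Fsp27-/- mice fell within the ob/ob range and the remaining 2 lay above it. The log2 fold change was 0.63 (standard error 0.24, 95% interval 0.060 to 1.20) and did not pass the test (adjusted p = 0.0966, limma), whereas without that array it was 0.87 and passed (adjusted p = 0.0214, limma). Leaving out array 3 instead gave 0.36 (adjusted p = 0.158, limma).

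Cd22, the inhibitory receptor that binds sialic acid, moved the other way. It read 6.79, 6.44 and 6.68 on ob/ob arrays, against 5.86, 6.01 and 6.36 on ob/ob/Fsp27-/- arrays. The genotypes did not overlap, with a gap of 0.079 between the lowest ob/ob and the highest ob/ob/Fsp27-/- array, and array 1 was again the lowest of its genotype. The gene was called lower, with a log2 fold change of −0.56 (1.47-fold, with a standard error of 0.15, 95% interval −0.92 to −0.20, adjusted p = 0.0303, limma). This call was lost without ob/ob/Fsp27-/- array 1 (−0.45, adjusted p = 0.0798, limma) and also without array 1 (adjusted p = 0.0905) or array 3 (adjusted p = 0.0746) of the ob/ob mice or the second of the ob/ob/Fsp27-/- arrays (adjusted p = 0.0988). Its promoter is shown for the EBF1 motif (that of the early B-cell factor, TCCC and GGGA with 2 bases of any kind between them, in capitals), found in 1 of the 6 promoters and in 0.779% of all promoters on either strand, here in the 30-base stretch chr7:30879058-30879087 on the minus strand, 59 to 30 bases before a start that lies inside the gene's wider annotated extent.
Cd22 promoter, EBF1 motif: tcctgcaagaTCCCTGGGGActcacacaga

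Ms4a1 encodes CD20, a membrane protein of mature B cells. It had the widest spread of the 9 genes in ob/ob/Fsp27-/- mice, with 5.04, 6.18 and 7.19 on arrays 1, 2 and 3, after 4.98, 5.15 and 5.22 in ob/ob mice. Array 1 lay within the ob/ob range, and array 3 lay 2.15 above array 1. The SD was 0.12 in ob/ob mice, against 1.08 in ob/ob/Fsp27-/- mice (n = 3 each), and only 0.492% of all genes had an SD as large as the latter. The log2 fold change was 1.02 with a standard error of 0.47 and a 95% interval of −0.095 to 2.14 (adjusted p = 0.158, limma). Without ob/ob/Fsp27-/- array 1 it was 1.57 and Ms4a1 was called higher (adjusted p = 0.00948, limma), and without array 3 it was 0.49 (adjusted p = 0.301, limma).

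Fcrla, an Fc receptor-like protein kept inside B cells, showed the smallest positive difference. Its values were 4.64, 4.61 and 4.83 in ob/ob mice, against 4.76, 5.16 and 5.24 in ob/ob/Fsp27-/- mice. Array 1 of the ob/ob/Fsp27-/- mice lay within the ob/ob range and the others above it. The log2 fold change was 0.36 (standard error 0.14, 95% interval 0.032 to 0.69, adjusted p = 0.0985, limma), and 0.51 with a call without that array (adjusted p = 0.0156, limma).

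Cd37 is a tetraspanin abundant on mature B cells and present on other leukocytes too, macrophages and dendritic cells among them. It read 9.79, 9.49 and 9.47 on ob/ob arrays, against 7.22, 7.85 and 7.73 on ob/ob/Fsp27-/- arrays. All ob/ob/Fsp27-/- arrays lay below all ob/ob arrays, with a gap of 1.61, and this was the only gene of the 9 in which array 3 was not the highest of the ob/ob/Fsp27-/- arrays. Cd37 was 3.96-fold lower, or −1.98 on the log2 scale (standard error 0.18, 95% interval −2.41 to −1.56, adjusted p = 0.000336, limma), and stayed between −2.11 and −1.79 under every alternative tried. Its promoter is shown for the motif of PU.1, the factor of myeloid and B cells encoded by Spi1 (AGAGGAAGT, in capitals as its reverse complement), found on either strand in 1 of the 6 promoters and in 0.798% of all, in the 30-base stretch chr7:45238845-45238874 on the minus strand, 35 to 6 bases before a start of the same kind.
Cd37 promoter, PU.1 motif: cccccccggaACTTCCTCTttctctgccgg
Spi1 was called lower, with a log2 fold change of −3.08 (adjusted p = 2.71e-05, limma), and its part in the level of Cd37 was not tested.

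Cxcr5, the chemokine receptor that draws B cells into follicles, read 4.00, 4.10 and 3.98 in ob/ob mice, against 4.23, 4.39 and 4.79 in ob/ob/Fsp27-/- mice. The genotypes were apart by 0.12, with array 3 the highest. The log2 fold change was 0.44 (standard error 0.15, 95% interval 0.098 to 0.78, adjusted p = 0.0605, limma) and, without ob/ob/Fsp27-/- array 1, 0.56 with a call (adjusted p = 0.0268, limma). Without array 3 it was 0.28 (adjusted p = 0.0839, limma). Cxcl13, the ligand of this receptor, was spread over both genotypes, at 6.06, 8.0 and 7.88 in ob/ob mice, against 6.99, 9.50 and 9.99 in ob/ob/Fsp27-/- mice (log2 fold change 1.51, adjusted p = 0.235, limma). Array 1 was the lowest of each genotype for the ligand, and without that of the ob/ob/Fsp27-/- mice it was called higher (2.43, adjusted p = 0.0255, limma).

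Pax5 showed the tightest values of the 9 genes within the ob/ob/Fsp27-/- arrays. It read 5.68, 5.50 and 5.62 on ob/ob arrays, against 5.85, 6.0 and 6.10 on ob/ob/Fsp27-/- arrays. All ob/ob/Fsp27-/- arrays lay above all ob/ob arrays, with a gap of 0.18. The mean went from 5.60 ± 0.093 to 5.98 ± 0.12 (SD, n = 3 each), and the difference of 0.39 (standard error 0.095, 95% interval 0.16 to 0.61) passed the adjusted p (0.0214, limma) but not the threshold on size. It stayed below that threshold without ob/ob/Fsp27-/- array 1 (0.45, adjusted p = 0.0195, limma). Pax5 no longer passed the adjusted p in limma without array 2 of the ob/ob mice (0.0853), without array 2 (0.0651) or array 3 (0.0621) of the ob/ob/Fsp27-/- mice, or after cyclic loess (0.0613), with log2 fold changes of 0.31 to 0.38.

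**Figure D2:**
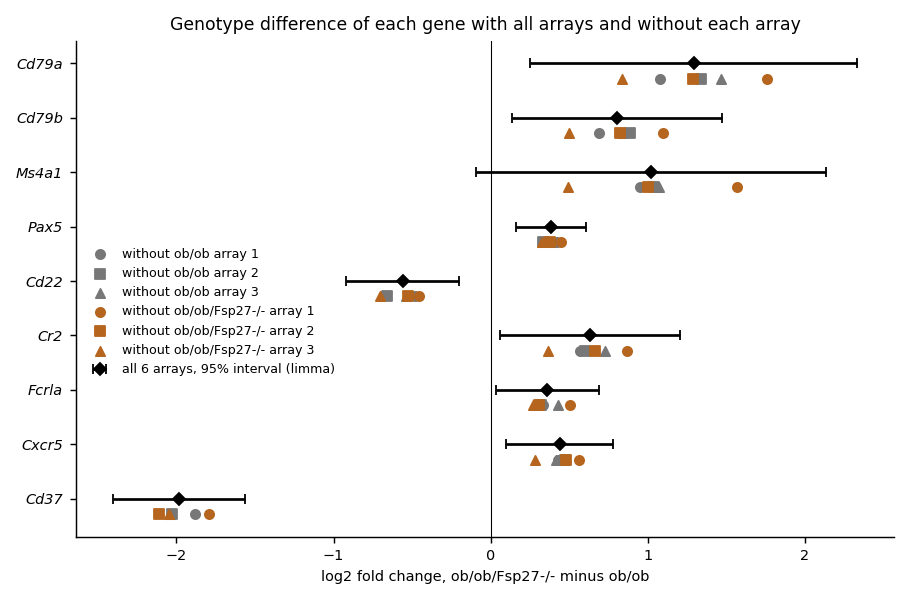
Log2 fold change of each gene, ob/ob/Fsp27-/- minus ob/ob, with all 6 arrays (diamonds, bars give the 95% interval from limma) and without each array in turn (smaller symbols below). Leaving out ob/ob/Fsp27-/- array 1 (brown circle) moves Ms4a1 from 1.02 to 1.57 and Cd79a from 1.29 to 1.76, and leaving out array 3 (brown triangle) moves them to 0.49 and 0.84, while Cd37 stays far below 0.

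The genes varied more within the ob/ob/Fsp27-/- genotype than within ob/ob. That they vary between the ob/ob/Fsp27-/- arrays was known when they were listed, so the counts here describe them and test nothing. The SD over 3 arrays was larger in ob/ob/Fsp27-/- mice for all 9 genes, as it was for 54.8% of all genes, and its median over the 9 was 0.34 against 0.17 in ob/ob mice (0.120 and 0.107 over all genes). In the ob/ob/Fsp27-/- arrays, 4 of the 9 (Cd79a, Cd79b, Ms4a1 and Cr2) were among the 5% of genes with the largest SD, and 1 was among them in the ob/ob arrays, Cd79a.

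The order of the arrays was shared among the genes. Array 1 was the lowest ob/ob/Fsp27-/- array for 9 of 9, array 3 the highest for 8 of 9, and array 2 lay between them for the same 8. Among all genes, array 1 was the lowest in 36.0%, array 3 the highest in 28.2% and the same order held in 15.7%. The 9 genes come from the same 3 RNA pools and are not independent of each other. They were also listed with their variation between these arrays known, so the shared order is a description and not a test. For the 7 genes with a positive fold change, array 1 lay −0.074 to 0.36 from the ob/ob mean and above every ob/ob array in 4 of 7. Arrays 2 (0.36 to 1.31) and 3 (0.50 to 2.21) lay above every ob/ob array in 7 of 7.

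With all arrays, 4 of the 9 genes (Cd79a, Cd79b, Pax5 and Cxcr5) had every ob/ob/Fsp27-/- array above every ob/ob array, beside 25.3% of all genes, 2 (Cd22 and Cd37) had every one below, beside 20.7% of all genes, and 3 overlapped. Without ob/ob/Fsp27-/- array 1, limma called 6 of the 9 higher (Cd79a, Cd79b, Ms4a1, Cr2, Fcrla and Cxcr5) and 1 lower (Cd37), beside 9.80% and 10.7% of all genes. As that array was the lowest of its genotype for all 9, leaving it out raised every fold change, and only 2 arrays of that genotype remained. Without this array and ob/ob array 2 together, a choice made after the data had been seen, 3 were called higher (Cd79a, Cd79b and Ms4a1) and 1 lower (Cd37), beside 7.81% and 8.93% of all genes. With array 1 alone left out, the median over all 9 stood at 0.56 on the log2 scale, against 0.053 over all genes. The levels were low for most of the genes, since 7 of the 9 had a mean below the median of all tested values (6.49), and Cd79b and Cd37 lay above it.

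Markers of other cells were compared beside the B lineage genes. Of 15 macrophage markers, 14 were called lower and none higher (0 with a positive change at an unadjusted p under 0.05, limma), with a median log2 fold change of −2.68, and the mean level of the list was 10.21 to 10.46 on the ob/ob arrays, against 7.76 to 7.99 on the ob/ob/Fsp27-/- arrays. Adgre1, the gene of F4/80, fell by 3.21 on the log2 scale (adjusted p = 7.82e-06, limma), and Cd163 was the marker not called. The part of macrophages in the lower values of Cd37 and Cd22 was not tested. The macrophage list was at its lowest on array 1 among the ob/ob/Fsp27-/- arrays (7.76 against 7.99 and 7.97), as the B lineage list was (5.47 against 5.97 and 6.41). Array 1 was also the lowest of these arrays for the T-cell, NK cell, dendritic cell, lymph node stroma, B-cell receptor signalling and adipocyte lists described below. It was not the lowest for the B precursor, housekeeping or epithelial lists.

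Of 18 measured T-cell markers, 2 were called lower, the surface protein Thy1 (−1.02, adjusted p = 0.00248, limma) and the signalling adaptor Lat (−0.67, adjusted p = 0.0292, limma), and none was higher (1 with a positive change at an unadjusted p under 0.05). The number lower was 4 when ob/ob array 3 was left out and 1 when any other array was. The mean level of the T-cell list was 5.59 to 6.05 in ob/ob mice, against 5.55, 5.72 and 5.62 on ob/ob/Fsp27-/- arrays 1, 2 and 3. Its level on array 3 lay within the ob/ob range, whereas that of the list of 9 B lineage genes lay above it. This contrast did not extend to 2 other B lists. On array 3, other B-cell surface and identity genes lay within their ob/ob range (6.41 against 6.38 to 6.44). B lineage transcription factors lay below theirs (7.47 against 7.52 to 7.58). No NK cell marker of 9 was called by limma in either direction (2 had a negative change at an unadjusted p under 0.05), though 1, Nkg7, was called lower without ob/ob array 3. Of the dendritic cell markers, 3 of 12 were lower (Clec10a, Clec9a and Xcr1) and none higher (2 with a positive change at an unadjusted p under 0.05).

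Adipocyte markers were higher in 6 of 11 (Adipoq, Plin1, Retn, Lipe, Pnpla2 and Cebpa), with mean levels of 11.07 to 11.76 in ob/ob mice, against 11.998 to 12.08 in ob/ob/Fsp27-/- mice. The number higher was 3 without array 2 of either genotype or array 3 of the ob/ob/Fsp27-/- mice. Of 11 housekeeping genes, 1 was higher (Sdha) and none lower, apart from Ywhaz when array 3 of the ob/ob mice or array 1 of the ob/ob/Fsp27-/- mice was left out. Of 3 measured erythroid markers, Alas2, the haem synthesis enzyme of red cell precursors, was higher (1.63, adjusted p = 0.00212, limma), at 7.40, 7.81 and 8.32 on ob/ob/Fsp27-/- arrays 1, 2 and 3 after 5.97 to 6.36 in ob/ob mice. It therefore had the order of arrays seen in 8 of the 9 B lineage genes, as did 15.7% of all genes. Of the 3 erythroid markers it was the only 1 with that order, and its part in the B lineage values was not tested. Of 10 markers of lymph node stroma and high endothelial venules, 1 was lower (Bst1) and none higher (2 with a positive change at an unadjusted p under 0.05). Cxcl13 was higher when ob/ob/Fsp27-/- array 1 was left out, and Lyve1 was also lower when ob/ob array 1 was. Glycam1, a mucin of the vessels through which lymphocytes enter lymph nodes, read 4.64 to 4.94 in ob/ob mice, against 4.84 to 5.0 in ob/ob/Fsp27-/- mice (adjusted p = 0.427, limma).

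**Figure D3:**
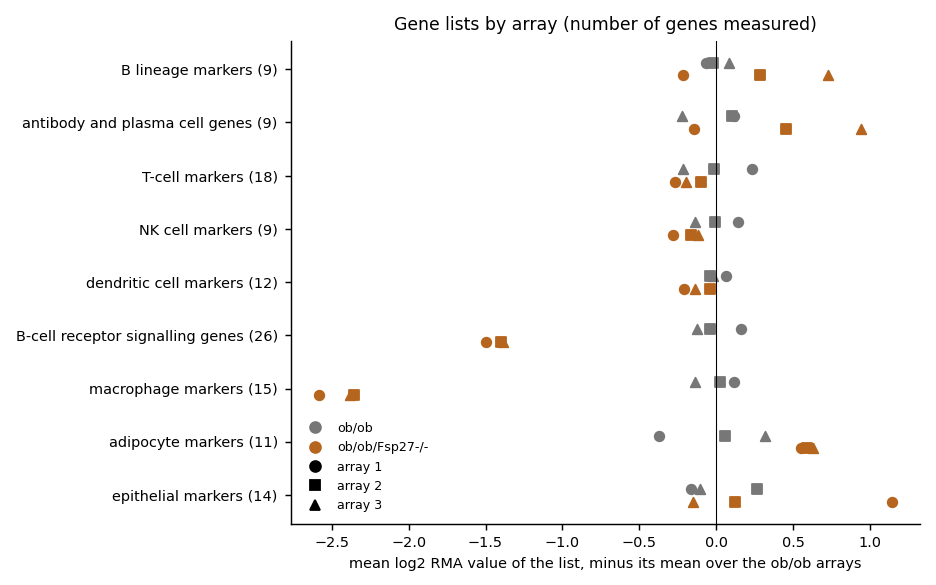
Mean log2 RMA value of each gene list on each array, minus its mean over the 3 ob/ob arrays (grey ob/ob, brown ob/ob/Fsp27-/-; symbols give the array number, and the number of genes stands in brackets). The B lineage and the antibody and plasma cell lists spread from array 1 to array 3 within ob/ob/Fsp27-/- mice (5.47 to 6.41 and 6.84 to 7.93 as levels), and the macrophage list lies far lower on all 3 of these arrays. The epithelial list is highest on ob/ob/Fsp27-/- array 1 (6.73), and next on ob/ob array 2 (5.86). The lists of other B-cell surface and identity genes and of B lineage transcription factors are not drawn, and neither rose above its ob/ob range on any array.

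Among 23 further genes of B-cell surface and identity that were measured, 2 were called higher, 3 lower and 18 not called, with a median log2 fold change of 0.29 and a positive sign in 15. The higher genes were Ralgps2, a Ral exchange factor (0.90, adjusted p = 0.000904, limma), and Tnfrsf13c, the receptor for the B-cell survival factor BAFF (0.52, adjusted p = 0.0231, limma). The lower genes were Cd72 (−4.14), Cd180 (−3.01) and Cd83 (−2.0), all with an adjusted p of at most 0.000109 (limma), which are surface proteins found on B cells and also on macrophages or dendritic cells. Cd72 was far lower on every ob/ob/Fsp27-/- array, at 5.22, 5.88 and 5.72 after 9.71, 9.52 and 10.02 in ob/ob mice. The mean level of the 23 genes, these 3 lower ones included, was 6.38 to 6.44 on ob/ob arrays. It was 6.09, 6.31 and 6.41 on ob/ob/Fsp27-/- arrays 1, 2 and 3, so it rose in the same order but not above the ob/ob range.

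Fcer2a, the low-affinity IgE receptor CD23 of mature B cells, read 4.79, 4.66 and 4.52 in ob/ob mice, against 5.04, 5.53 and 6.50 in ob/ob/Fsp27-/- mice (log2 fold change 1.03, adjusted p = 0.0567, limma). Array 3 of the ob/ob/Fsp27-/- mice was again the highest, and the genotypes did not overlap. H2-Ob, a chaperone chain of antigen loading in B cells, read 6.03, 5.87 and 6.0 against 6.04, 6.68 and 7.19 (0.67, adjusted p = 0.0995, limma), with array 1 next to the ob/ob arrays. Bank1, a scaffold of B-cell receptor signalling, read 6.37, 6.39 and 6.44 against 6.15, 6.64 and 7.41, so that array 1 lay below and array 3 well above the ob/ob arrays. Without ob/ob/Fsp27-/- array 1, 7 of the 23 were higher and 3 lower, and the genes gained were Fcer2a, H2-Ob, Fcmr, Vpreb3 and Ccr6. The number higher was 1 without array 2 of either genotype or array 3 of the ob/ob mice, and the number lower was 5 without ob/ob/Fsp27-/- array 2. The call of Tnfrsf13c was lost without any of these arrays and without ob/ob/Fsp27-/- array 3.

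**Figure D4:**
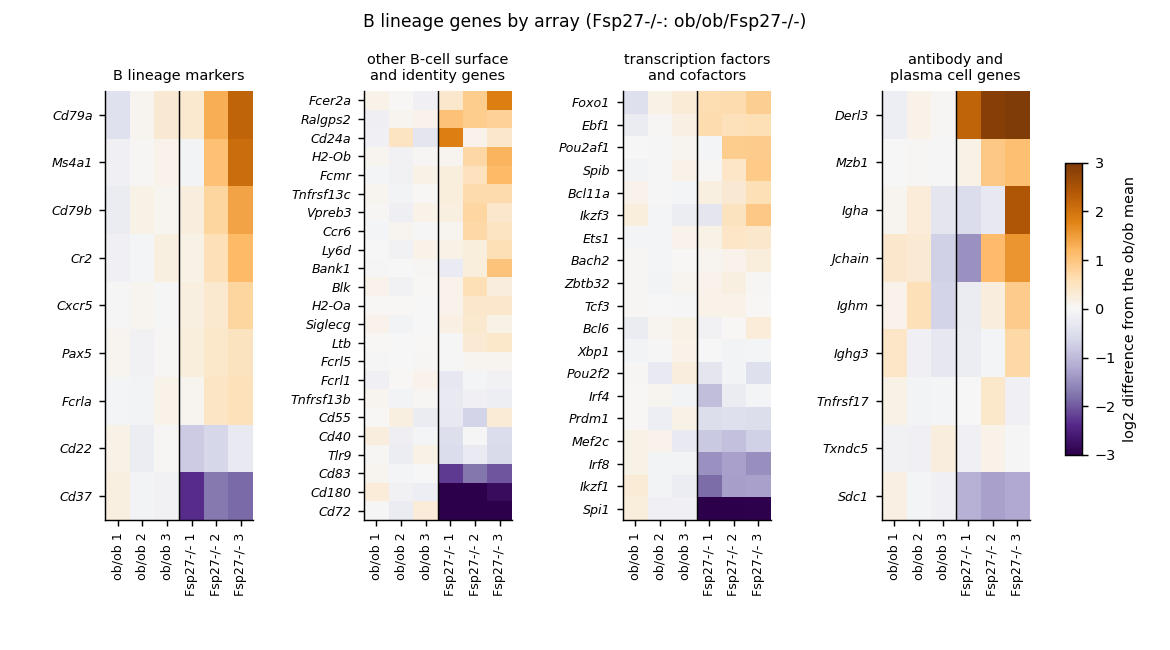
Difference of each array from the gene's ob/ob mean (log2 units, orange higher and purple lower, colours saturate at 3 in either direction) for the 9 B lineage genes, 23 other surface and identity genes, 19 transcription factors and cofactors and 9 antibody and plasma cell genes, each sorted by log2 fold change. The upper 7 B lineage genes, H2-Ob, Pou2af1, Spib and Mzb1 deepen on ob/ob/Fsp27-/- arrays 2 and 3 and are pale on array 1, Ralgps2, Foxo1, Ebf1 and Derl3 are high on all 3, Cd24a is high on array 1 alone, and Cd37, Cd72, Cd180, Cd83 and Spi1 are low on all 3.

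Among 19 transcription factors and cofactors of the lineage, 2 were called higher and 4 lower. The higher ones were Ebf1, the early B-cell factor that adipocytes also make (0.59, adjusted p = 0.00817, limma), and Foxo1, a factor of B-cell development and of metabolic tissues (0.70, adjusted p = 0.0310, limma). The lower ones were Spi1, Ikzf1 (−1.49), Irf8 (−1.41) and Mef2c (−0.81), which myeloid cells use as well. Pou2af1, the B-cell coactivator of octamer factors, read 6.09, 6.07 and 6.18 in ob/ob mice, against 6.06, 6.98 and 7.02 in ob/ob/Fsp27-/- mice (0.57, adjusted p = 0.132, limma). Array 1 of the ob/ob/Fsp27-/- mice was at the ob/ob level and the others were nearly 1 log2 unit higher. Spib, a relative of PU.1 in B cells and plasmacytoid dendritic cells, read 5.0, 5.05 and 5.21 against 5.12, 5.51 and 6.02 (0.46, adjusted p = 0.154, limma). Without ob/ob/Fsp27-/- array 1 the list had 4 higher genes, Ebf1 with Pou2af1, Spib and Ikzf3 (Foxo1 then missed the threshold, adjusted p = 0.0548), and 4 lower. The number higher was 0 without ob/ob array 1 and 1 without array 2 of either genotype or array 3 of the ob/ob/Fsp27-/- mice. The mean level of the list was 7.52 to 7.58 on ob/ob arrays, against 7.15, 7.39 and 7.47 on ob/ob/Fsp27-/- arrays 1, 2 and 3.

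B-cell receptor signalling was represented by 26 measured genes, of which 18 were called lower and none higher (0 with a positive change at an unadjusted p under 0.05, limma), with a median log2 fold change of −1.28, and the same numbers held without ob/ob/Fsp27-/- array 1. They included the adaptors Stap1 (−4.61), Lat2 (−3.40) and Blnk (−2.95) and the kinases Btk (−2.49) and Syk (−2.35). The receptor chains Cd79a and Cd79b are not in that list and had positive fold changes. Most of these signalling proteins are also used by myeloid cells, and the list's mean level was 8.82 to 9.11 in ob/ob mice, against 7.45 to 7.56 in ob/ob/Fsp27-/- mice, a gap also seen for the macrophage markers. The part of macrophages in it was not tested.

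Genes of antibodies and plasma cells were measured for 9 of 18 listed. Of these, 1 was called higher and 1 lower, and 3 were higher without ob/ob/Fsp27-/- array 1 (Derl3, Mzb1 and Jchain). Derl3, a protein of endoplasmic reticulum quality control, rose by 2.77 (adjusted p = 0.000285, limma), at 8.48, 9.16 and 9.47 after 6.09, 6.39 and 6.30. Sdc1, the plasma cell marker CD138 that epithelial cells and macrophages also make, fell by 1.21 on the log2 scale (adjusted p = 0.000294, limma). Jchain, which joins IgM and IgA chains, read 8.60, 8.55 and 7.51 in ob/ob mice, against 6.75, 9.35 and 9.80 in ob/ob/Fsp27-/- mice (0.41, adjusted p = 0.728, limma). Array 1 was below all ob/ob arrays and the remaining 2 were above them. Igha, the IgA heavy chain, was high on ob/ob/Fsp27-/- array 3 alone, at 8.33, 8.54 and 11.28 after 8.94, 9.12 and 8.49 (0.54, adjusted p = 0.629, limma). Mzb1, a chaperone of marginal zone B cells and plasma cells, read 5.80, 5.86 and 5.79 against 5.97, 6.76 and 6.89 (0.72, adjusted p = 0.0515, limma).

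Of 9 genes of B-cell precursors, 2 were lower, the interleukin-7 receptor gene Il7r (−4.66) and Cd93 (−1.19), both also made by other cells. Rag1, Rag2, Dntt, Vpreb1 and Igll1, which act in receptor assembly in precursors, were not called and read 3.29 to 5.34 in ob/ob mice, against 3.32 to 5.68 in ob/ob/Fsp27-/- mice. Among 12 measured genes of B-cell attraction and survival, 2 were lower, the chemokine receptor gene Cxcr4 (−1.14, adjusted p = 0.000903, limma) and Tnfsf13b, which encodes BAFF (−0.55, adjusted p = 0.0132, limma), and none was higher (2 with a positive change at an unadjusted p under 0.05). The call of Tnfsf13b was lost without array 2 of the ob/ob mice or array 1 of the ob/ob/Fsp27-/- mice. Without the latter, Cxcl13 alone was higher in this list.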

How the data were processed

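RNA of GWAT was read on 6 GeneChip Mouse Gene 1.0 ST arrays. The authors deposited log2 values made with the Robust Multi-array Average (RMA), which adjusts background and quantile-normalizes arrays. Its version is not given in the sources used here. Quantile normalization gives the probe values of all arrays the same distribution before they are summarised by probeset, so a global shift would not show. Of 34760 probesets, 22961 with a symbol were fitted by limma 3.58.1 under R 4.3.3 (lmFit, then eBayes, with genotype as the only term and Benjamini-Hochberg adjustment), after the code had been tested on simulated data. Detection calls need single probes and were not made. The number of arrays limits the precision. The members and the 16 gene lists (210 of 243 entries measured) were chosen with earlier results of these data known. Genes named are the 9 members, Cidec, list genes beside their list (called ones first) and the 12 genes nearest to the members' mean profile. Each array was left out in turn, and other filters, scalings and fits were tried. Promoters came from RefSeq (GRCm38.p6). Figures used python 3.11.15 and matplotlib 3.10.9.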

Additional observations from a re-analysis of the deposited data

How the results depend on the processing

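Over 16 alternative settings, all 137 log2 fold changes of the 9 genes kept their sign and 120 stayed on the same side of the threshold. The filters, the trend and robust fits, the mean of probesets and the lack of a size threshold leave each fold change as reported. Under these settings the sign could not change, so only the scalings, the array weights and the arrays left out bear on it. The number called higher was 0 of 9 in the fit reported, beside 9.58% of all genes. At an unadjusted p under 0.05 (limma), 6 genes had a positive change, and the share of all genes there was not counted. The number called higher was 1 with only probesets above the median level, where Cd79b and Cd37 alone remained to be tested. It was 1 (Pax5) with no threshold on size, beside 14.7% of all genes. When 1 array was left out it was 0 to 6, with 6 only without ob/ob/Fsp27-/- array 1, beside 9.80% of all genes. Leaving out this array and ob/ob array 2 together, the arrays with the highest epithelial levels in their genotype and chosen after seeing the data, gave 3 (Cd79a, Cd79b and Ms4a1), beside 7.81% of all genes called higher in that fit. Pax5 passed the adjusted p in the fit reported but failed it when any 1 of 3 arrays (array 2 of either genotype or ob/ob/Fsp27-/- array 3) or both of these arrays were left out, and after cyclic loess. The number called lower (2) was 1 with only probesets above the median level, 1 with array weights, 1 without both of these arrays, and 1 to 2 when 1 array was left out, Cd37 being called each time. Of the NK cell markers (0 lower), 1 was lower with array weights, with no threshold on size, with only probesets above the median level and without ob/ob array 3. Why the counts moved was not tested, though fewer genes were tested under the filter. As ob/ob/Fsp27-/- array 1 was the lowest of its genotype for all 9 genes, leaving it out raised each of their log2 fold changes. No paired analysis was possible because the labels give no replicate numbers shared between the genotypes. Signal over background was not measured, and 7 of the 9 genes lie below the median of all tested values. Other filters, scalings (median centring, cyclic loess) and fits (trend, robust) changed neither count.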

Other observations

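The 12 genes nearest to the mean profile of the B lineage genes were found by the root mean square difference between each gene's centred values and the mean centred profile of the 9. That mean was −0.20, −0.15 and −0.049 on ob/ob arrays 1, 2 and 3, and −0.35, 0.15 and 0.60 on ob/ob/Fsp27-/- arrays 1, 2 and 3. It averages Cd37 and Cd22, which were lower in ob/ob/Fsp27-/- mice, with genes that had positive fold changes. Over the 6 arrays this difference was 0.070 to 0.139 log2 units for the 12, against a median of 0.345 over all genes. The 9 genes themselves lay between 0.15 (Fcrla) and 1.15 (Cd37) from their mean profile. Cd37, Cd79a (0.61), Ms4a1 (0.51) and Cd22 (0.45) lay farther from it than the median gene, so nearness to the mean is not nearness to each B lineage gene. Among the 12, Spib (0.106) and Bank1 (0.116) are known from B cells. The others were 1700028J19Rik (0.070), Olfr1214, Plekhf1, Dsg1c, Lypd6b, Mucl2, Fam136a, Them4, Mtrf1 and Gdpgp1. None of the 12 was called different between the genotypes.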
